A study of Mus musculus with 20 samples.

Results

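The complement and coagulation factors examined here are 38 genes of the liver's secreted defence and clotting proteins, 16 of complement and 22 of coagulation and fibrinolysis. They were chosen by name: every probe set whose platform annotation gives exactly 1 gene symbol, with that symbol on the list, was taken, and a gene with several was represented by whichever had the highest mean score over all 20 arrays. This found 35 of the 38 genes, 14 of complement and 21 of coagulation, among 18193 genes represented in the same way. C4b shares its probe set with C4a and was left out by that rule, and C3 and Cpb2 were not analysed here. Livers came from male C57BL/6J mice labelled as 8 weeks old, 10 fed low fat and 10 fed high fat, with an array for each mouse. Mice are named below by diet and by the replicate number of their label. The mice arrived aged 3 weeks, took the low-fat diet for acclimation and were then divided. Fat supplied 10% of energy in the low-fat diet and 45% in the high-fat diet, each fed for 4 weeks, and livers of both groups were taken after a fast of 16 h. The labels name no agent or genetic change in either group, and the high-fat groups with maple syrup extract that the design text describes were not analysed here.

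Complement is a cascade of plasma proteins, made mainly by hepatocytes, that marks microbes and damaged cells and can end in a pore in their membrane. Coagulation is a second protease cascade that turns fibrinogen into fibrin, held in check by inhibitors and undone by plasmin. Hepatocytes also make most of the circulating clotting factors, so liver transcript levels bear on the supply of these proteins, although plasma levels also depend on secretion and consumption.

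Stretches of DNA just before the start sites are shown for the 4 genes that rose on the high-fat diet, since these carry the result, and for the 4 genes whose difference between diets was nearest to 0. Each is the 200 bases before the annotated start, 5′ to 3′ in the direction of the gene, from RefSeq on GRCm38.p6. Capitals mark matches, on either strand, to 6 sets of letters. For liver factors these were GTTAAT, part of the site of HNF1, then TTGCNNAA for C/EBP, CAAAGTCCA for HNF4 and TGTTTNC for forkhead factors. Also searched were TTCNNNGAA for the cytokine-driven STAT factors and the core promoter element TATAAA, and 0 bases lay in overlapping matches. Genes that rose, with C6 at chr15:4727010-4727209 (plus strand), C8b at chr4:104766117-104766316 (plus strand), F11 at chr8:45262032-45262231 (minus strand) and Hrg at chr16:22950872-22951071 (plus strand):
C6: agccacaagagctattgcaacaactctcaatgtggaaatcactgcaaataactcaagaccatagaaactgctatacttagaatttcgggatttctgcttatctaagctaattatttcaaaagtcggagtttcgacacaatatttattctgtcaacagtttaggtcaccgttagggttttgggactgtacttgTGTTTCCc
C8b: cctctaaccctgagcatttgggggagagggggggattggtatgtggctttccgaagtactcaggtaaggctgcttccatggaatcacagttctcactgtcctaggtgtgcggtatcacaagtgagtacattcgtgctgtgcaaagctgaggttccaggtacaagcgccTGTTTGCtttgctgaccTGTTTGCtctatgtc
F11: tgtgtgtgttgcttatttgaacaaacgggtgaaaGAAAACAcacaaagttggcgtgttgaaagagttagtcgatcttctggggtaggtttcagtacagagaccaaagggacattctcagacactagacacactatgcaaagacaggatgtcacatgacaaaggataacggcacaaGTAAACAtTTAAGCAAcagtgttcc
Hrg: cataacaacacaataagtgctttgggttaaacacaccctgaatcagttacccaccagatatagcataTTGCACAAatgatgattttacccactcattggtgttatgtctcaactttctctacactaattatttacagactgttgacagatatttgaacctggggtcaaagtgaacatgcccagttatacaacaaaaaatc
Genes nearest to no difference, with F2 at chr2:91636458-91636657 (minus strand), Fgg at chr3:83007524-83007723 (plus strand), Serpinc1 at chr1:160978383-160978582 (plus strand) and C4bp at chr1:130661619-130661818 (minus strand):
F2: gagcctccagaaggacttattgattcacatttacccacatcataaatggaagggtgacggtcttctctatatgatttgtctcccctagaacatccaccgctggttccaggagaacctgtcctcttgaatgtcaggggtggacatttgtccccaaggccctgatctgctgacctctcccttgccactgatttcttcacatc
Fgg: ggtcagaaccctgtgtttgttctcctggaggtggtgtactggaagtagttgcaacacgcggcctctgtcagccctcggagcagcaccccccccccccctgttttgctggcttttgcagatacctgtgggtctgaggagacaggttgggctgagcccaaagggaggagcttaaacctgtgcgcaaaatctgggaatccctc
Serpinc1: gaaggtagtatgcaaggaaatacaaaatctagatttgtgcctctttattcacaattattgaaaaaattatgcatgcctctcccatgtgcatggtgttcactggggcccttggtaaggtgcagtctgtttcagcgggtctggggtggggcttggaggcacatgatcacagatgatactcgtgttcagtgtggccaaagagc
C4bp: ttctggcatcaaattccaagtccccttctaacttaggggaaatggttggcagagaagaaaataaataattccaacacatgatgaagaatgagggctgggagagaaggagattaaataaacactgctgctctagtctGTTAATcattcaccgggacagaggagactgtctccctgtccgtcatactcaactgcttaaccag

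The forkhead letters were found in the windows of C6, C8b and F11 and in 0 of the 4 windows of the other set. Over the 28 measured members with a promoter in the table they were found in 7 (25%), against 14.1% of all 32851 promoters. The C/EBP letters were found in F11 and Hrg, in 7 of the 28 members and in 7.47% of all promoters. GTTAAT was found in C4bp, in 7 of the 28 members and in 5.06% of all promoters. TTCNNNGAA was found in 4 of the 28 members (14.3%; 5.49% of all promoters), TATAAA in 2 (7.14%; 9.96%) and CAAAGTCCA in 0 (0.317%), and none of these in the 8 windows shown. A match of letters is a description of the sequence, not a site of binding.

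The deposited scores run like a log2 intensity in level but are compressed in their differences between arrays, unevenly from gene to gene, so a difference in score is not a fold change. Sizes are therefore standardised differences, the high-fat mean minus the low-fat mean divided by the SD within diets, and each carries a 95% interval derived from a noncentral t. A further measure, which needs only the order of the values, sets each high-fat mouse against each low-fat mouse and counts in how many of these 100 pairs the first was higher. The SD within diets of the 35 genes ran from 5.3e-07 to 0.00066 in score. The 8 members with a mean score above 13 had SDs of at most 7.43e-06. All 7 measured hepatocyte markers, such as Alb and Apoa1, lay at 11.49 to 14.82, above the array median of 6.57. By limma 0 of these 7 markers passed an adjusted p of 0.05 and 1 had an unadjusted p under 0.05. That marker was Ttr, which was lower in every high-fat mouse than in every low-fat mouse and passed by the rank sum test. Ttr was named after its value was seen. Of the markers of Kupffer cells, liver endothelium, stellate cells, platelets, red cells, neutrophils and bile duct, 0 passed by limma and 0 by the rank sum test. An unadjusted limma p under 0.05 was found for 3 of them. Over all genes 3.49% passed by limma, 3.13% by the rank sum test, and 17% had an unadjusted limma p under 0.05. Of the 5 endothelial markers 4 were higher on high fat, against 52.5% of all genes. In the other sets these were 2 of 6 for Kupffer cells, 3 of 6 for stellate cells and 2 of 4 for platelets. For red cells, neutrophils and bile duct they were 1 of 2, 0 of 3 and 1 of 4. The mean standardised value of the endothelial markers per mouse ran from -0.98 to 0.81 on low fat and from 0.06 to 1.09 on high fat. The part of other cells in the results below was not tested. In bulk liver, fewer cells of a type and less RNA per cell cannot be told apart.

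The comparison asks what the high-fat diet changed in the transcripts of these factors. On the high-fat diet 4 of the 35 measured genes rose and 0 fell. They were C6 and C8b, parts of the membrane attack complex, F11, a protease zymogen of the intrinsic clotting pathway, and Hrg, a plasma glycoprotein that binds heparin and plasminogen. In complement 2 of 14 rose and in coagulation 2 of 21, at an adjusted p of 0.05 by limma over all genes, where 3.49% of the 18193 genes passed, 1.71% higher and 1.78% lower. Of the 14 complement genes 10 were higher and 4 lower, with a median standardised difference of 0.38. Of the 21 coagulation genes 13 were higher and 8 lower, with a median of 0.17. Over all genes 52.5% were higher and the median was 0.04. An unadjusted p under 0.05 was reached by 6 complement and 4 coagulation genes, against 17% of all genes. By the exact rank sum test C8b, F11 and Hrg passed as higher, against 1.58% of all genes, and Mbl2 as lower. The directions depended on the scaling of the arrays: with arrays centred on their medians 3 of the 14 complement and 2 of the 21 coagulation genes were higher and the median of all genes moved from 0.04 to -1.29. That scaling gave 2 calls higher and 6 lower in complement, and 1 higher and 17 lower in coagulation. Over all 18193 genes, 912 were then higher, and 215 were called higher and 14883 lower. With quantile normalisation, which moved the median of all genes to -0.41, 3 of 8 and 4 of 7 genes that kept differing values were higher. Over all genes that kept differing values, 4944 of 17325 were higher. The diets overlapped for all 35 members, while 0.275% of all genes had diets that did not overlap.

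**Figure D1:**
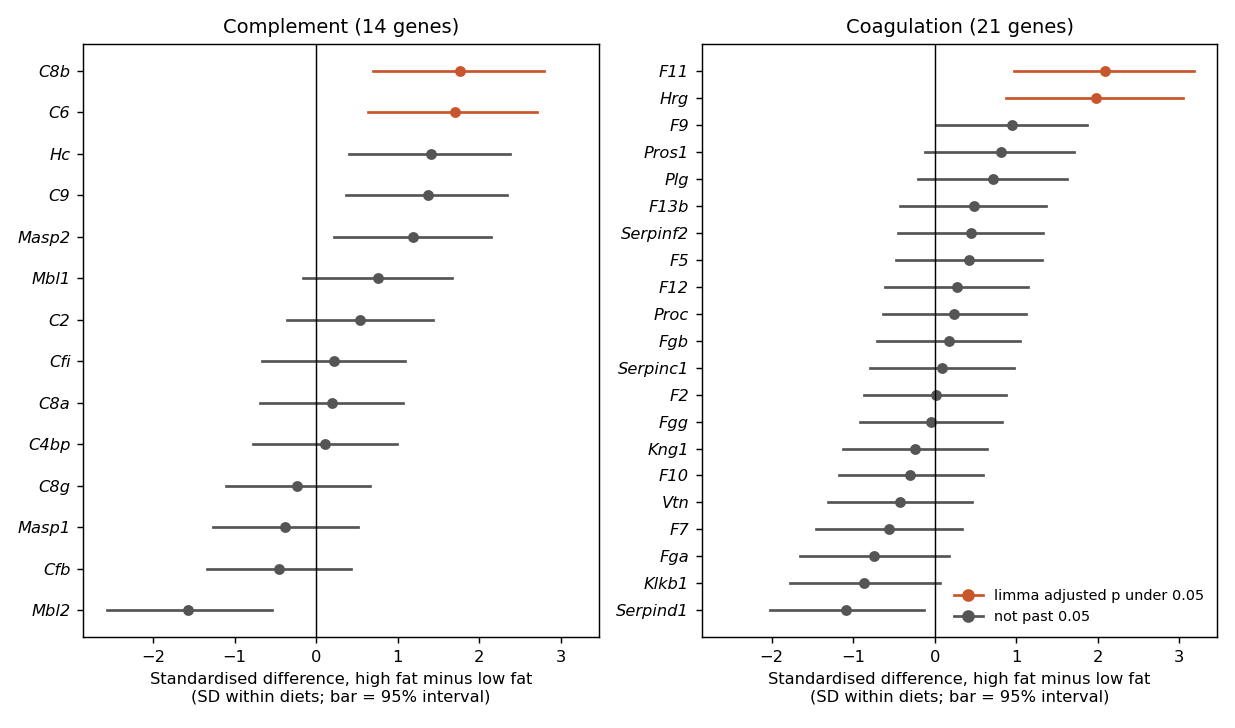
Standardised difference between diets (dot) with its 95% interval (bar), in SDs within diets, for the 14 complement genes (left) and 21 coagulation genes (right), n = 10 mice per diet. C8b, C6, F11 and Hrg (orange) passed an adjusted p of 0.05, and Mbl2 at -1.57 was the lowest of all members.

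The 4 complement genes that stood highest all belong to the membrane attack complex. C8b encodes the beta chain of C8, a component of the forming pore. Its deposited score ran from 10.92025 over a median of 10.92065 to 10.92094 in the low-fat mice and from 10.92071 over 10.92098 to 10.92125 in the high-fat mice. The low-fat median was exceeded by all 10 high-fat mice, and 6 exceeded every low-fat mouse. The standardised difference was 1.76 (95% interval 0.70 to 2.79; limma adjusted p = 0.0301), and the high-fat mouse was higher in 93 of 100 pairs. The call was lost without high-fat mouse 5 (adjusted p = 0.0531), high-fat mouse 6 (0.0541) or low-fat mouse 10 (0.0504), and after quantile normalisation (0.45, adjusted p = 0.542).

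C6 encodes the component that binds activated C5 and starts assembly of the pore. Its score ran from 10.35737 over a median of 10.35785 to 10.35850 on low fat and from 10.35798 over 10.35845 to 10.35875 on high fat. Each of the 10 high-fat values exceeded the low-fat median, and 4 exceeded every low-fat value. The standardised difference was 1.70 (0.64 to 2.71; limma adjusted p = 0.037), with 88 of 100 pairs higher. Omitting 1 mouse ended this call in 13 of 20 fits, namely without low-fat mouse 1, 2, 3, 4, 6, 8 or 10 or high-fat mouse 1, 2, 4, 6, 8 or 10 (adjusted p 0.0514 to 0.0687). It was also lost with the rank sum test (0.0695), and quantile normalisation turned its sign (-0.85, adjusted p = 0.214).

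Of the other membrane attack genes, Hc, which encodes C5, stood at 1.41 (0.40 to 2.38; limma adjusted p = 0.0861). Its score ran from 12.538404 over 12.538416 to 12.538437 on low fat and from 12.538411 over 12.538436 to 12.538457 on high fat, so 5 high-fat mice lay above all low-fat mice. Hc passed without high-fat mouse 4 (adjusted p = 0.0344). C9, whose copies form the wall of the pore, stood at 1.37 (0.37 to 2.34; limma adjusted p = 0.0924), and 2 high-fat mice lay above every low-fat mouse. Its score ran from 12.948901 over 12.948930 to 12.949005 on low fat and from 12.948950 over 12.948979 to 12.949019 on high fat. C9 passed without low-fat mouse 5 (adjusted p = 0.0306). The other chains of C8 lay near 0. C8a, the alpha chain, stood at 0.20 (-0.69 to 1.07) and C8g, the gamma chain, at -0.23 (-1.10 to 0.66), and whether they differ from C8b in response was not tested. Over the 6 membrane attack genes 5 were higher, with a median of 1.39, and 4 had an unadjusted p under 0.05, against 17% of all genes. With arrays centred on their medians C6 (1.51) and C8b (1.39) stayed above 0, while Hc stood at -1.10 (adjusted p = 0.0309), C9 at -0.57, C8a at -0.57 and C8g at -1.34.

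The lectin pathway begins with mannose-binding lectins that recognise sugars on microbes and carry serine proteases. Mbl2, the gene of one of these lectins, was the lowest of all members at -1.57 (-2.57 to -0.54; limma adjusted p = 0.0538). Its score ran from 11.33395 over 11.33484 to 11.33554 on low fat and from 11.33203 over 11.33377 to 11.33505 on high fat. Of the high-fat mice 6 lay below every low-fat mouse and 1 above the low-fat median. Mbl2 missed the threshold by limma and passed by the exact rank sum test (adjusted p = 0.048). By limma it passed in a fit of the genes with the higher means (0.035), after each of the 3 array scalings (0.0168 to 0.0479), and without low-fat mouse 3 (0.0389) or high-fat mouse 3 (0.017). It did not pass in the other 18 fits that left out 1 mouse (limma adjusted p up to 0.0921). Nor did it pass without moderation (0.0627), with a variance trend and robust fit (0.0552), with a gene's probe sets averaged (0.0509) or without cross-hybridising probe sets (0.0572). Mbl1, the other mannose-binding lectin gene, stood at 0.76 (-0.16 to 1.66; limma adjusted p = 0.409), with 7 high-fat mice above every low-fat mouse. Masp2, whose protease cleaves C4 and C2, stood at 1.19 (0.22 to 2.14; limma adjusted p = 0.153), with 4 high-fat mice above every low-fat mouse and 4 low-fat mice below every high-fat mouse. Masp1, a protease that activates the pathway, stood at -0.38 (-1.26 to 0.51).

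The convertase genes C2 (0.54, -0.36 to 1.43) and Cfb (-0.46, -1.34 to 0.43) did not pass. They encode the protease subunits of the classical and the alternative convertase. The regulators Cfi, a protease that degrades C3b and C4b, and C4bp, its cofactor, stood at 0.22 (-0.67 to 1.09) and 0.11 (-0.77 to 0.99).

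**Figure D2:**
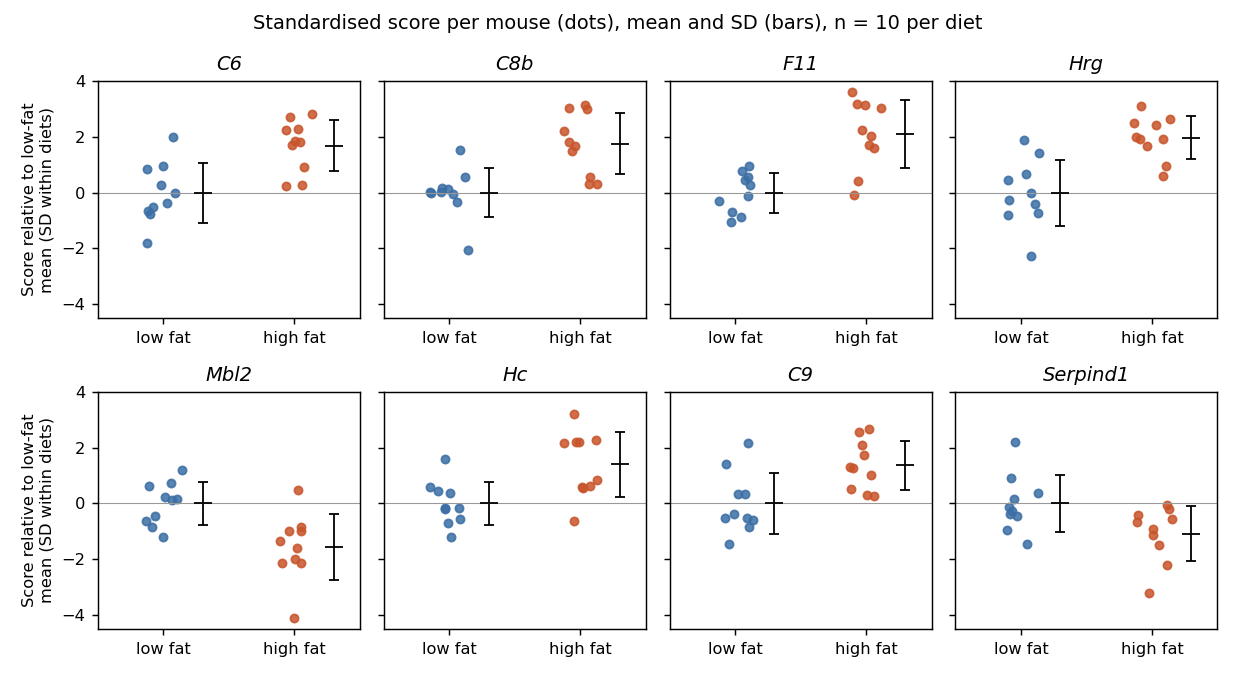
Score of each mouse (dot) relative to the low-fat mean, in SDs within diets, with the mean and SD of each diet (bars, n = 10), for the 4 genes that rose (top) and for Mbl2, Hc, C9 and Serpind1 (bottom), which did not pass. The diets overlap in every panel, and 8 high-fat mice lie above all low-fat mice for F11 and 7 for Hrg.

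Among the coagulation factors F11 differed most. F11 encodes factor XI, which activates factor IX and sustains thrombin formation. Its score ran from 9.35619 over a median of 9.35688 to 9.35739 on low fat and from 9.35677 over 9.35811 to 9.35900 on high fat. Of the high-fat mice 8 lay above every low-fat mouse, while the lowest, mouse 10, lay below the low-fat median. The standardised difference was 2.09 (0.97 to 3.18; limma adjusted p = 0.011), with 91 of 100 pairs higher. F11 passed in all 20 fits that left out 1 mouse (adjusted p 0.00298 to 0.0225) and stayed above 0 under every scaling tried, but did not pass after quantile normalisation (0.96, adjusted p = 0.163).

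None of the other 3 genes of contact activation passed. Klkb1, the gene of plasma prekallikrein, which is related to factor XI, stood at -0.87 (-1.78 to 0.06; limma adjusted p = 0.329). Of its high-fat mice 3 lay below and 1 above every low-fat mouse. F12, the gene of the factor that activates both, stood at 0.27 (-0.61 to 1.15), and Kng1, the gene of kininogen, at -0.24 (-1.12 to 0.64). Whether these genes differ from F11 in response was not tested.

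Hrg, of the fibrinolysis genes, had scores from 13.0410722 over a median of 13.0410880 to 13.0411031 on low fat and from 13.0410935 over 13.0411037 to 13.0411122 on high fat. The diets overlapped little: 7 high-fat mice lay above every low-fat mouse and 7 low-fat mice below every high-fat mouse. The standardised difference was 1.98 (0.88 to 3.05; limma adjusted p = 0.0166), with 94 of 100 pairs higher. Hrg passed in all 20 fits that left out 1 mouse (adjusted p 0.00714 to 0.0333), but centring arrays on their medians turned its sign (-1.08, adjusted p = 0.032). Quantile normalisation left it at 1 value on all arrays. Plg, the gene of plasminogen and the other measured fibrinolysis gene, stood at 0.72 (-0.20 to 1.62). The probe sets of Hrg and C8b carry suffixes by which Affymetrix marks a match to several transcripts, and neither gene has another named probe set.

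None of the 6 vitamin K dependent factors passed (smallest limma adjusted p = 0.276), and 1 had an unadjusted p under 0.05. F9, which forms the factor X activating complex with factor VIII, was that gene at 0.95 (0.01 to 1.87; limma adjusted p = 0.276), with 3 high-fat mice above every low-fat mouse. Pros1, the gene of protein S, a cofactor of activated protein C, stood at 0.81 (-0.12 to 1.71; limma adjusted p = 0.372), with 5 high-fat mice above every low-fat mouse. Prothrombin, encoded by F2, showed the smallest difference of all members, 0.01 (-0.87 to 0.88). F7 stood at -0.56 (-1.45 to 0.34), F10 at -0.30 (-1.18 to 0.59) and Proc, the gene of protein C, at 0.24 (-0.64 to 1.12). F5, the gene of the cofactor of factor X, stood at 0.42 (-0.47 to 1.31).

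None of the 4 clot genes passed, the fibrinogen chains included. Fga stood at -0.75 (-1.65 to 0.17; limma adjusted p = 0.421), with 4 high-fat mice below every low-fat mouse. Fgb stood at 0.17 (-0.71 to 1.04) and Fgg at -0.05 (-0.92 to 0.83). F13b, the carrier subunit of the factor that crosslinks fibrin, stood at 0.48 (-0.42 to 1.36). These intervals are wide, so they do not show that the diets were alike.

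Of the inhibitors, Serpind1, the gene of heparin cofactor II, which inhibits thrombin, was lowest at -1.09 (-2.02 to -0.13; limma adjusted p = 0.201). Its score ran from 11.275696 over 11.275813 to 11.276039 on low fat and from 11.275528 over 11.275758 to 11.275828 on high fat. Of the high-fat mice 3 lay below every low-fat mouse, and 4 low-fat mice lay above every high-fat mouse. Serpinc1, the gene of antithrombin, stood at 0.09 (-0.79 to 0.97), and Serpinf2, the gene of the plasmin inhibitor antiplasmin, at 0.45 (-0.45 to 1.33). Vtn, the gene of vitronectin, an adhesion protein that also blocks the membrane attack complex, stood at -0.43 (-1.31 to 0.46). The 21 members outside the 4 that rose and the 10 next in size ran from -0.56 to 0.72.

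Within a diet the members tended to be high or low in the same mice. Low-fat mouse 2 was the lowest of its diet for 15 of the 35 genes, and low-fat mouse 9 the highest for 15. On high fat, mouse 4 was the lowest for 15 and mouse 3 the highest for 13. The mean standardised value over the 35 genes, taken relative to the low-fat mean, ran from -1.14 (mouse 2) to 0.91 (mouse 9) on low fat and from -0.76 (mouse 4) to 0.96 (mouse 3) on high fat. The median value of all 18193 genes ran from -0.14 to 0.12 over the 20 mice, with -0.09 and 0.09 in low-fat mice 2 and 9. A median over so many genes is unlike a mean over 35, so it does not show whether the members' spread was unusual. How many of all genes were lowest or highest in these mice was not counted. For the 4 genes that rose, high-fat mouse 1 lay above every low-fat mouse for all 4, and high-fat mouse 4 for 1 of them. On low fat mouse 2 was lowest and mouse 9 highest for both arms, at -1.02 and 0.89 for complement and at -1.22 and 0.92 for coagulation. On high fat the mice at the ends were not the same for both arms, though partly by small margins. Complement was lowest in mouse 9 (-0.65), with mouse 4 at -0.56, and highest in mouse 3 (1.24), with mouse 6 at 1.23. Mbl2, a complement gene, stood at -4.116 in high-fat mouse 9. Coagulation was lowest in mouse 4 (-0.89) and highest in mouse 2 (0.88), with mouse 3 at 0.78.

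**Figure D3:**
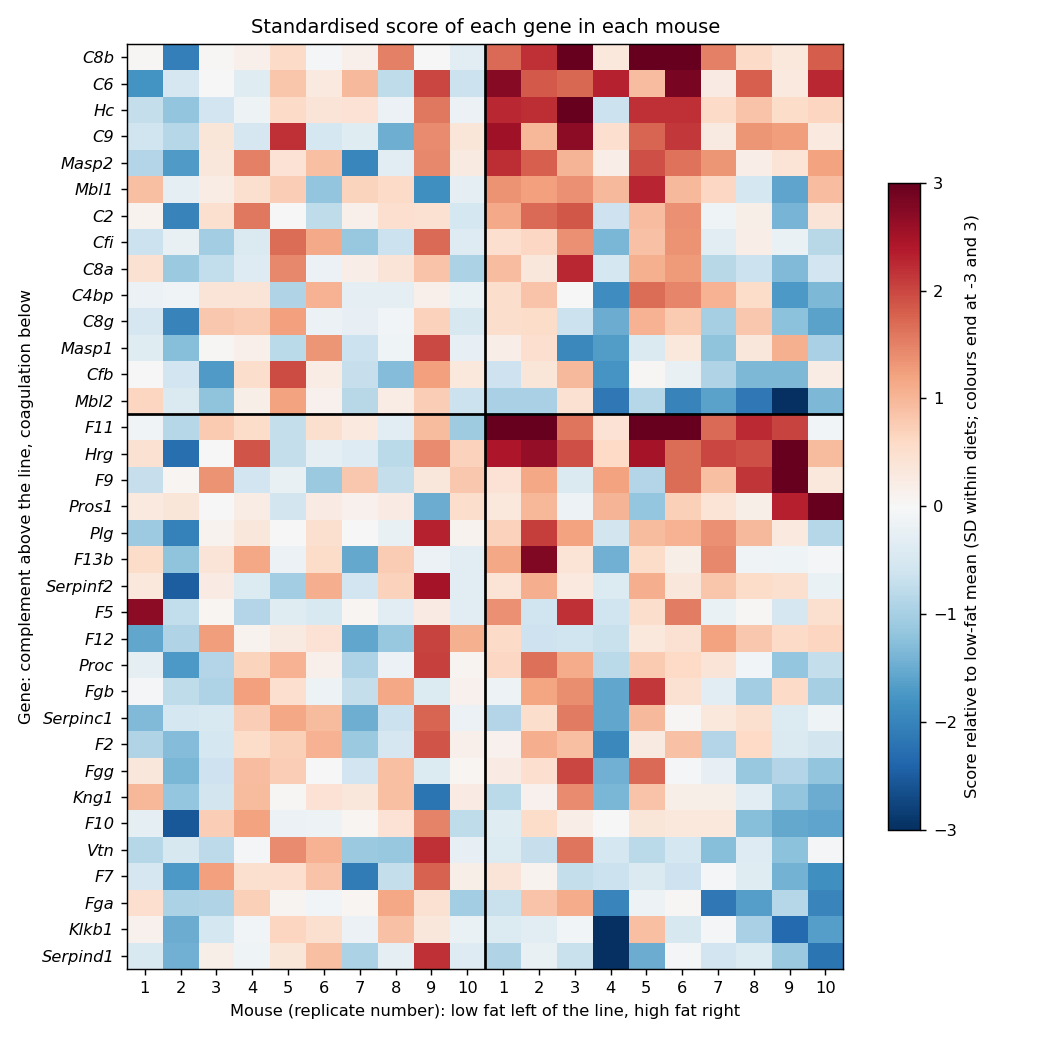
Score of the 35 genes (rows, complement above the line and coagulation below) in the 20 mice (columns, low fat left and high fat right), relative to the low-fat mean and in SDs within diets; red is higher and blue lower. Low-fat mouse 2 and high-fat mouse 4 are low for many rows, 15 genes each having their lowest value of the diet there, while Mbl2 is blue in most high-fat mice.

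The chains of a shared protein were compared across mice within each diet, for fibrinogen and for C8, which gave 12 correlations over 10 mice each. Fgb and Fgg varied together most closely, with r = 0.92 on low fat (permutation p = 0.0001, adjusted p = 0.0012; rho = 0.98, permutation p = 4e-05, adjusted p = 0.00048) and r = 0.88 on high fat (permutation p = 0.0009, adjusted p = 0.0054; rho = 0.89, permutation p = 0.00116, adjusted p = 0.00696). Without the 2 mice farthest from the median of Fgb these were 0.89 and 0.79. On high fat Fga correlated with Fgb at r = 0.83 (permutation p = 0.00398, adjusted p = 0.0119; rho = 0.77, permutation p = 0.0125, adjusted p = 0.03) and, without 2 mice, at 0.80. Fga correlated with Fgg at r = 0.80 (permutation p = 0.00589, adjusted p = 0.0141; rho = 0.81, permutation p = 0.00688, adjusted p = 0.0206) and, without 2 mice, at 0.70. On low fat the same pairs gave r = 0.66 (permutation p = 0.0386, adjusted p = 0.0661; rho = 0.61, permutation p = 0.0659, adjusted p = 0.0989) and r = 0.69 (permutation p = 0.0287, adjusted p = 0.0574; rho = 0.71, permutation p = 0.0268, adjusted p = 0.0537), which did not pass. Without 2 mice these were 0.70 and 0.76. The genes of a pair share each mouse's array and scaling, whose part in these correlations was not tested. Pairs of genes from different proteins were not examined. Whether chains of 1 protein vary together more closely than other members was therefore not tested.

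Of the C8 chains, C8a and C8b correlated on high fat at r = 0.85 (permutation p = 0.00304, adjusted p = 0.0119; rho = 0.83, permutation p = 0.00475, adjusted p = 0.019), and at 0.77 without 2 mice. On low fat they gave r = 0.61 (permutation p = 0.0573, adjusted p = 0.0764; rho = 0.55, permutation p = 0.104, adjusted p = 0.139) and 0.38 without 2 mice. C8g correlated with C8a at r = 0.56 on low fat (permutation p = 0.0871, adjusted p = 0.104; rho = 0.41, permutation p = 0.247, adjusted p = 0.247) and 0.49 on high fat (permutation p = 0.146, adjusted p = 0.159; rho = 0.43, permutation p = 0.217, adjusted p = 0.237). Without 2 mice these became -0.04 and 0.72, so the low-fat value rested on those mice. With C8b it gave r = 0.66 (permutation p = 0.0548, adjusted p = 0.0764; rho = 0.65, permutation p = 0.0486, adjusted p = 0.0832) and 0.47 (permutation p = 0.166, adjusted p = 0.166; rho = 0.52, permutation p = 0.134, adjusted p = 0.161). Without 2 mice these were 0.67 and 0.13. In all, 5 of the 12 correlations passed an adjusted p of 0.05.

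**Figure D4:**
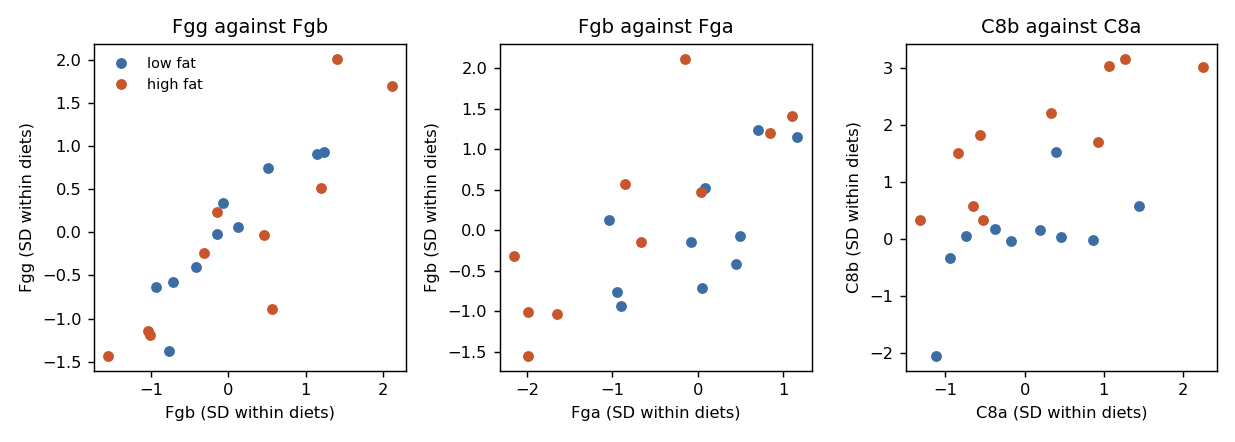
Each dot is 1 mouse, with the score of 1 chain against another relative to the low-fat mean in SDs within diets, for Fgg against Fgb, Fgb against Fga and C8b against C8a (blue low fat, orange high fat, n = 10 each). Fgg and Fgb lie along 1 line in both diets (r = 0.92 and 0.88), and 6 high-fat mice lie above every low-fat mouse for C8b.

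Of the 35 measured genes 28 had 1 named probe set and 7 had several. In a fit over all 45037 probe sets that are not controls, where 2.32% passed, C6, C8b, F11 and Hrg passed too (limma adjusted p 0.0472, 0.0395, 0.0152 and 0.0227). None of the further probe sets of the 7 genes passed. Masp1, at -0.38 in the probe set used, had 4 others at 1.05 (adjusted p = 0.251), 0.59, 0.20 and -0.30, so 3 of these differed from it in sign. The second probe set of Kng1 stood at -0.95 (adjusted p = 0.314), against -0.24. The second probe set of F5 stood at -0.17 against 0.42, also with the other sign, and that of Masp2 at 0.58 against 1.19. The second probe set of Vtn stood at -0.41 against -0.43, and those of C2 at 0.68 and 0.52 and of F10 at -0.54 and -0.33 had the sign of the one used.

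Further genes of both cascades were read from a list of 27 complement and 29 coagulation genes, such as the C1 subunits, membrane regulators, tissue factor and the plasminogen activators. Of the 21 and 26 that were measured, 0 passed by limma and 0 by the rank sum test, against 3.49% of all genes by limma and 3.13% by the rank sum test. An unadjusted limma p under 0.05 was reached by 1 of the 21 and 6 of the 26, against 17% of all genes. Their median standardised differences were 0.26 and 0.16, with ranges of -1.13 to 1.07 and -1.46 to 1.62. The smallest adjusted p was 0.18 in the complement list and 0.0504 in the coagulation list.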

How the data were processed

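Livers of 20 mice, 10 per diet, were measured on Affymetrix 3′ expression arrays, per the labels' protocols. The deposited values are 1 score per probe set and array, and how the authors summarised and normalised probes into it is, in the sources used here, not given. The planned design assumed values on a log-like scale. The planned test was kept, and sizes are given in SDs. No filter on low values was used, and the table held 0 columns of other samples. The number of arrays limits the precision.

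Of the 45037 probe sets that are not controls, 34945 had 1 gene symbol, 932 several and 9160 are unnamed here. The 35 members matched the gene table of GRCm38.p6 by identifier, with 0 changed symbols. The diet effect was fitted over 18193 genes by lmFit and eBayes of limma 3.58.1 (R 4.3.3), two-sided and without covariates, and called at a Benjamini-Hochberg adjusted p of 0.05. The prior, of 0.724 degrees of freedom, damps the statistics of genes with tiny SDs, so calls depend in part on a gene's scale; a model without moderation was an alternative. Correlations used 100000 resamples, two-sided, in scipy 1.17.1. In simulated data with 200 changed genes, the fit recovered 7.46% of shifts of 1 SD, 53.7% of 2 SD and 93.9% of 3 SD, with 3 false calls over 18193 genes. The simulated noise was normal and independent between genes, and in the data more genes passed (3.49%). These rates therefore need not hold for the data.

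Members, the list of further pathway genes, the cell type markers and the motifs were chosen with earlier results of these data known. Named in full were members past the threshold, then the 10 with the largest standardised difference among the rest; Ttr and the genes of the closing observations lie outside that rule. Alternatives were an array scaling by quantiles or by medians, a fit of the genes whose mean lies above the median gene, the replicate number as a block, an exact rank sum test, a variance trend with robust fitting, omission of probe sets with cross-hybridising suffixes, averaging a gene's probe sets, a threshold of 0.01 and omission of each mouse. Centring on standardised values was added after seeing the data. Same-numbered mice of both diets did not deviate together (correlations -0.159 to 0.26), so the main fit did not pair them by number. Such correlations cannot exclude a pairing.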

Additional observations from a re-analysis of the deposited data

Results flagged for a closer look

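In 70 groups of 10 mice, each of the 35 genes in each diet, 3 had a mouse far from the others by the gap test, while chance gives about 1 in 20 groups. For C8b, low-fat mouse 2 was low (gap over range 0.477), and without it the standardised difference was 1.73 with a limma adjusted p of 0.0422. For F5, low-fat mouse 1 was high (0.684), and without it the difference was 0.95 with an adjusted p of 0.358. For Vtn, high-fat mouse 3 was high (0.569), and without it the difference was -0.74 with an adjusted p of 0.456.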

How the results depend on the processing

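The counts of members past the threshold (2 in complement, 2 in coagulation) were the same with a model without moderation, a variance trend with robust fitting and averaging over probe sets of a gene. Centring on standardised values, added after seeing the data, and a fit of the genes with the higher means gave 3 and 2, Mbl2 falling in both. The rank sum test gave 2 and 2, with Mbl2 falling in place of a rise of C6. Leaving out 1 mouse gave 0 to 3 in complement and 2 to 2 in coagulation, with 0 without high-fat mouse 6 or low-fat mouse 10. A threshold of 0.01 gave 0 and 0. Omitting probe sets with cross-hybridising suffixes gave 1 and 1, since C8b and Hrg then had no probe set. Quantile normalisation gave 1 (Mbl2, lower) and 0. It left 20 of the 35 members with 1 value on all arrays, moved the median of all genes from 0.04 to -0.41, and turned C6 (-0.85). Masp1 (0.25), Masp2 (-0.03), C2 (-1.05), Pros1 (-0.82), F5 (-0.45) and Klkb1 (0.95) also changed sign, none of them called before or after. Over the 17325 genes that kept differing values it called 144 higher and 1344 lower. Centring on array medians moved the median of all genes to -1.29 and gave 8 (2 higher, 6 lower) and 18 (1 higher, 17 lower). Over all 18193 genes it called 215 higher and 14883 lower. Array medians ran from 6.5670156 to 6.5672015 on low fat and from 6.5670519 to 6.5671906 on high fat. They were lower in most low-fat mice than in most high-fat mice. This centring subtracts the same amount from every gene of an array, whatever the gene's SD. It turned 12 members to a call as lower: Hc (-1.10), Cfi (-1.36), C4bp (-1.06), F2 (-1.35), Proc (-1.35), F5 (-1.30), F12 (-1.30), Fgb (-1.33), F13b (-1.19), Serpinc1 (-1.33), Plg (-1.32) and Hrg (-1.08). With the replicate number as a block, 0 complement and 1 coagulation gene passed (F11, adjusted p = 0.045). Of the 20 mice, 2 correlated best with their own number in the other diet. The causes of these changes were not tested.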

Other observations

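Some further genes of the same cascades, chosen after their values were seen, are given here, and none of them passed. Fgl1, a fibrinogen-like protein secreted by hepatocytes, stood at 1.60 (95% interval 0.56 to 2.60; limma adjusted p = 0.0504), and the high-fat mouse was higher in 87 of 100 pairs. Plat, the gene of tissue plasminogen activator, stood at 1.62 (0.58 to 2.63; limma adjusted p = 0.0672), with a mean score of 6.36, below the array median of 6.57. Itih4, an inter-alpha-trypsin inhibitor heavy chain cleaved by kallikrein, stood at -1.46 (-2.45 to -0.45; limma adjusted p = 0.0704). Lman1 and Mcfd2, whose proteins form the cargo receptor that carries factors V and VIII out of the endoplasmic reticulum, stood at 1.17 (0.20 to 2.11; limma adjusted p = 0.164) and 0.77 (-0.15 to 1.67; limma adjusted p = 0.402). Proz, the gene of protein Z, a cofactor of an inhibitor of factor X, stood at -1.01 (-1.94 to -0.07; limma adjusted p = 0.237). Cd59a, a membrane protein that blocks the membrane attack complex, stood at -1.13 (-2.07 to -0.17; limma adjusted p = 0.18).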
